A study of Sus scrofa with 599 samples.

Results

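Enhancer regions of retroperitoneal adipose tissue (RAD) that shared no base with an enhancer region of the other 3 adipose tissues (ATs) were examined in pigs on a normal diet. They were chosen by their H3K27ac calls, as the 3093 of 20732 autosomal regions of the normal-diet RAD table (14.9%) that overlapped no region of the corresponding tables of greater omentum (GOM), mesenteric adipose (MAD) and the upper layer of backfat (ULB), and they covered 13.9 of its 464.6 Mb. Their absence from those 3 tables is what chose them and is therefore no result. The other 17639 RAD regions overlapped 1 of the other tables in 2266 cases, 2 in 2822 and all 3 in 12551 (60.5%). By the same rule, 3594 regions were GOM-only (17.8% of the GOM table), 1298 MAD-only (6.29%) and 1606 ULB-only (8.21%).

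The pigs were adult females of the Bama miniature breed, in which GOM, MAD and RAD are visceral ATs and ULB is subcutaneous. The normal condition (NC) group ate a normal diet, the weight-gain (WG) group a prolonged high-fat diet, and the weight-loss (WL) group gained weight in the same way and was then kept on restricted calories. The labels name no allele or drug. H3K27ac ChIP-seq and input reads were pooled into 1 region table per AT and group, from 2 H3K27ac libraries for NC RAD, 3 for NC GOM, 1 for NC MAD and 3 for NC ULB, so the tables have no replicate. WG pigs were split into subgroups by the authors from estimated cell composition, which gave RAD tables of WG group 5 (11 libraries) and WG group 6 (1 library), besides the WL RAD table (4 libraries). Genes near the regions were followed in RNA-seq libraries of 9 GOM, 12 MAD, 12 RAD and 5 ULB samples in NC, 45, 36, 39 and 38 in WG, and 10 of each AT in WL, and the chromatin compartment of the regions in Hi-C libraries of 9, 12, 12 and 5 NC samples.

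RNA-seq depth ran from 3.34 to 22.9 M estimated counts over the 236 libraries. The RAD libraries carried the adipocyte lipid genes throughout, with a summed level between 18460 and 41303 TPM (transcripts per M, normalised for gene length and depth) over the 26 listed genes with values in NC. Albumin (ALB), the main secreted protein of hepatocytes, reached 12157 TPM in NC RAD replicate 7 and exceeded 1000 TPM in 5 NC libraries, and the NC counts of called genes are also given without them. In 17 of the 38 NC libraries protein-coding genes took 74.8 to 84.8% of the summed TPM of protein-coding and non-coding transcripts, against 91.9 to 96.8% in the other 21. The study's methods call the replicates biological, and the labels do not name the pig of each sample. In bulk tissue, fewer cells of a type and less RNA per cell cannot be told apart.

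Acetylation of lysine 27 on histone H3 marks active enhancers and promoters, and stretches of marked chromatin away from start sites are read as candidate enhancers, which can lie far from the genes they act on. Fat depots differ in the enhancers they use and in the developmental transcription factors they express, a record of the part of the body from which their mesenchyme arose. RAD lies behind the peritoneum beside the kidneys. An enhancer map of a tissue includes the mark in every cell type that the sample held.

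Of the RAD-only regions, 2 were found again in all 3 RAD tables of WG and WL and in none of the 11 WG and WL tables of the other ATs. The first lay on chromosome 5 over the start of ALX1, a homeobox transcription factor known from craniofacial mesenchyme, at chr5:96781400-96791999 (Sscrofa11.1). It was 10.6 kb long and joined 3 peaks. The second lay on chromosome 9 in an intron of PGR, the progesterone receptor, at chr9:32080600-32081799, 47977 bases from the gene's start, and was 1.2 kb long. The middle 300 bases of both regions are printed because no other RAD-only region was found in every RAD table and in RAD tables alone. They lie at chr5:96786550-96786849 in the ALX1 region and at chr9:32081050-32081349 in the PGR region, both on the plus strand. All sequences are from the RefSeq genome of build Sscrofa11.1, and capitals in these stretches mark matches on either strand. The letters of several known factors were searched, among them those of nuclear receptors, GATA, homeobox and early B cell factors. Only TTGGCA, the core of the nuclear factor I site, and CAGCTG, an E-box, matched.
ALX1 region middle: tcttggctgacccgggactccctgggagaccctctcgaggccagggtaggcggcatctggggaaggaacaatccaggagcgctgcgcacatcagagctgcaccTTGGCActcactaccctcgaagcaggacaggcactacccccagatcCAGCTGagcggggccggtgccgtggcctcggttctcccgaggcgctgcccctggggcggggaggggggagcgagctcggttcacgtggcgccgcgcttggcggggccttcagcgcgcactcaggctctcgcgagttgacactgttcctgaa
PGR region middle: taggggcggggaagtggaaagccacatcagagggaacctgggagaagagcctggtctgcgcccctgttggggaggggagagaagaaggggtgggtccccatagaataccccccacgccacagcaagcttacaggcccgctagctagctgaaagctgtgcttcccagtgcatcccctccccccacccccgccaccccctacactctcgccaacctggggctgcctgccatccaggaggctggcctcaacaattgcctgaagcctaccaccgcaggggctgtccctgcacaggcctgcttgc
The stretch of the ALX1 region held 1 match each to TTGGCA and CAGCTG, and the PGR stretch held 0 matches to any letters searched. The shares below are given for TTGGCA and CAGCTG because they matched. The reference marks 97.0% of the PGR region as repeated sequence, against 15.4% of the ALX1 region, and the part of reads from other copies of such sequence in the result was not tested. In windows of 500 bases at the middle of regions, TTGGCA stood in 27.2% of RAD-only, 23.9% of other NC RAD and 23.9% of genome windows. It stood in 28.4, 27.9 and 27.9% of the GOM-only, MAD-only and ULB-only windows, so its share did not set the RAD-only regions apart from these. CAGCTG stood in 35% of RAD-only, 27.8% of other NC RAD and 22.1% of genome windows. In the GOM-only, MAD-only and ULB-only windows it stood in 24.3, 22.98 and 23.9%. Base composition moved with CAGCTG. In windows of under 44% GC it stood in 18.6% of RAD-only and 19.6% of other NC RAD windows, and in windows of at least 56% GC in 39.9% and 32.5%.

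A second set of sequences is shown because it recurred among the regions. The middle 500 bases of each region were searched for words of 12 bases, and 24 words occurred in at least 45 RAD-only windows and over 10 times as often there as in other NC RAD windows. Since frequency chose these words, the counts below describe them and test nothing. At least 3 of the 24 words stood in 121 of 3057 RAD-only windows (3.96%), in 23 of 17614 windows of other NC RAD regions (0.131%), in 0.0840%, 0.0779% and 0.0627% of the GOM-only, MAD-only and ULB-only windows, and in 31 of 22649 windows placed each 100 kb along the autosomes (0.137%). The most frequent word, TGCCACTGCCAA, stood in 68 RAD-only windows (2.22%), against 0.114% of the windows of other NC RAD regions and 0.0706% of the genome windows. Stretches of 300 bases of the plus strand are printed for 3 RAD-only regions, taken in order of the number of these words, at most 1 per chromosome and with the most frequent word inside, with the words in capitals, from chr6:122339005-122339304, chr9:112471302-112471601 and, in an intron of B3GAT2, chr1:50968450-50968749.
repeat member 1: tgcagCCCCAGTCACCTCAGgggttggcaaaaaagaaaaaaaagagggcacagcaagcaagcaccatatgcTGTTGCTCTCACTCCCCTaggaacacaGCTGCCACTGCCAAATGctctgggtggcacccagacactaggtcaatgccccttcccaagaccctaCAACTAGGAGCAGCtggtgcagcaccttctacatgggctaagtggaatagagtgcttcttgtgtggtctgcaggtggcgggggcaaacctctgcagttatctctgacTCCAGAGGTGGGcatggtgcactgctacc
repeat member 2: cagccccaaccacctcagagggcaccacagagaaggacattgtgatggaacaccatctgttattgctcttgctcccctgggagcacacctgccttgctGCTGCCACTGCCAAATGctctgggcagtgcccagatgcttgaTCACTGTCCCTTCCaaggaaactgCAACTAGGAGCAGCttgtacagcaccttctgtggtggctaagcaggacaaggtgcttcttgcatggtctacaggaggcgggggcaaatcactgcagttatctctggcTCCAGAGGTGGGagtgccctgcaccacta
repeat member 3: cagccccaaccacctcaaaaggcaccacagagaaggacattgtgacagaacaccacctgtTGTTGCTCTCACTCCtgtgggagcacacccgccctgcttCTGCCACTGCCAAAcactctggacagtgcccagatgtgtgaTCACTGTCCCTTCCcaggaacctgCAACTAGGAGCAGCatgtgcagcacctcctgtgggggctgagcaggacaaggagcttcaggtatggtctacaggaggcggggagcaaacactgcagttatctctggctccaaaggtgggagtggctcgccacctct
Members 2 and 3 were identical at 257 of 300 positions (85.7%), and member 1 matched them at 62.7% and 59.0%, compared base by base with no gaps. The reference marks 81.0 to 87.7% of these 3 stretches as repeated sequence. None of the 3 regions overlapped a region of any WG or WL table. Anywhere in their length, 155 RAD-only regions (5.01%) on all 18 autosomes held the words, as did 538 (3.05%) of the other NC RAD regions, which are longer.

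The RAD-only regions were short and weakly marked. Their median length was 2.8 kb, against 9.2 kb for the other NC RAD regions, 3.2 kb for GOM-only, 3.0 kb for MAD-only and 3.6 kb for ULB-only regions. Of the RAD-only regions, 2662 (86.1%) consisted of a single peak, against 46.8% of the other NC RAD regions. The ROSE program, which ranks regions by H3K27ac minus input signal, marked 1211 regions of the table as super-enhancers, and 0 of them were RAD-only. The best rank of a RAD-only region was 2639. The net signal, in depth-normalised reads per base times length, was 49.8 per kb at the median, against 98.4 for other NC RAD regions, 81.9 for GOM-only, 77.1 for MAD-only and 56.9 for ULB-only regions. In all, 608 RAD-only regions (19.7%) lay above the median net signal per base of their table. Length and signal bear on whether a region can overlap another, so these values describe what the rule selected. The distance from a RAD-only region to the nearest region of the other NC tables was 23.4 kb at the median. It was 0 for 8 regions that touched such a region, at most 1 kb for 92 and within the distance over which ROSE joins peaks for 813. On the other side of the rule, 20 regions were left out for an overlap of 200 bases, the smallest observed, and 242 for an overlap of at most 1000 bases.

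**Figure D1:**
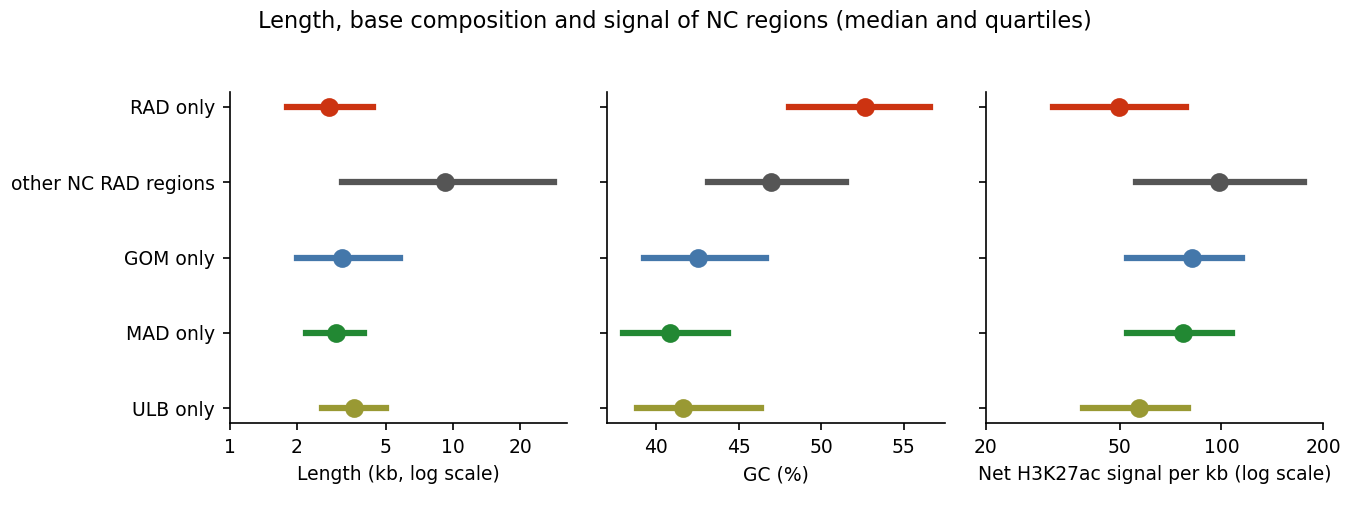
Median (point) and quartiles (bar) of region length in kb (log scale), GC content in percent and net H3K27ac signal per kb (log scale) for RAD-only regions, the other NC RAD regions, and the GOM-only, MAD-only and ULB-only regions. The RAD-only regions have the highest median GC content, 52.7%, and the lowest median net signal per kb, 49.8.

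Base composition set the RAD-only regions apart from both the rest of their table and the single-AT regions of the other tables. Their median GC content was 52.7% (quartiles 48.1 and 56.6%), against 46.9% for other NC RAD regions, 42.5% for GOM-only, 40.8% for MAD-only and 41.6% for ULB-only regions. Among regions of 2 to 4 kb the medians were 51.8% for RAD-only and 47.8% for other NC RAD regions. Soft-masked repeats took 17.8% of a RAD-only region at the median, against 25.2% of other NC RAD regions and between 25.1 and 26.3% of the other single-AT sets. By the position of their midpoints, 1510 RAD-only regions (48.8%) were intergenic, 1381 (44.6%) lay in an intron and 202 (6.53%) in an exon. A protein-coding start lay within 10 kb of 14.2% of them, against 46.8% of other NC RAD regions, 6.51% of GOM-only, 4.08% of MAD-only and 9.78% of ULB-only regions. They were present on every autosome, from 11.2% of the NC RAD regions of chromosome 16 to 20.1% of those of chromosome 18. The table rests on 2 RAD libraries, and the part of base composition in which regions were called was not tested.

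The letters bound by known factors also differed in frequency, and part of the difference went with GC content. The letters AGGTCA, bound by nuclear receptors, stood in 34.2% of RAD-only windows of 500 bases, in 28.3% of windows of other NC RAD regions and in 27.6% of genome windows. The GATA letters AGATAA stood in 17.8%, 23.6% and 30.8%, and the homeobox letters TAATTA in 8.11%, 11.9% and 18.5%. Within windows of under 44% GC, AGATAA stood in 35.2% of RAD-only and 35.7% of other windows, and TAATTA in 21.4% and 21%. The motif of early B cell factors (EBF), which act in adipocyte differentiation, stood in 4.06% of RAD-only windows, 1.46% of windows of other NC RAD regions and 0.923% of genome windows. Of the 124 RAD-only windows with this match, 52 also held the repeated words, and over the windows without the words the shares were 2.45% and 1.43%. Both strands were searched, and a match is a description of sequence, not a bound site.

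Most RAD-only regions were absent from the RAD tables of WG and WL. These tables come from other pigs and other numbers of libraries, so no region was followed through a change of diet. In the RAD table of WG group 5, 532 of the 3093 (17.2%, exact 95% binomial interval 15.9 to 18.6%) overlapped a region, in that of WG group 6 963 (31.1%, 29.5 to 32.8%), and in that of WL RAD 580 (18.8%, 17.4 to 20.2%). The intervals cover counting error only. The 11 tables of the other ATs in WG and WL held between 10.3% (GOM of WG group 1) and 25.2% (MAD of WG group 4) of the same regions, with a median of 17.1%. The RAD tables of WG group 5 and WL therefore lay inside the range of tables from other depots, and the RAD table of WG group 6, from 1 library, lay above it. For the 608 regions above the median net signal per base, the shares were 21.7 to 25.0% in the RAD tables and from 9.54 to 28.3% in the others, so that no RAD table lay above the range. The other NC RAD regions were found in 62.9 to 73.2% in the 3 RAD tables and in 56.6 to 78.4% in the 11 others. GOM-only regions returned in 46 to 54.7% in the 4 GOM tables and in 4.51 to 21.3% elsewhere, with no overlap between the ranges. ULB-only regions returned in 16.8, 46.6 and 60.8% in the ULB tables, against 9.71 to 32.9% elsewhere, and MAD-only regions in 16.3 to 40.1% in the MAD tables, against 7.01 to 26.5%.

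**Figure D2:**
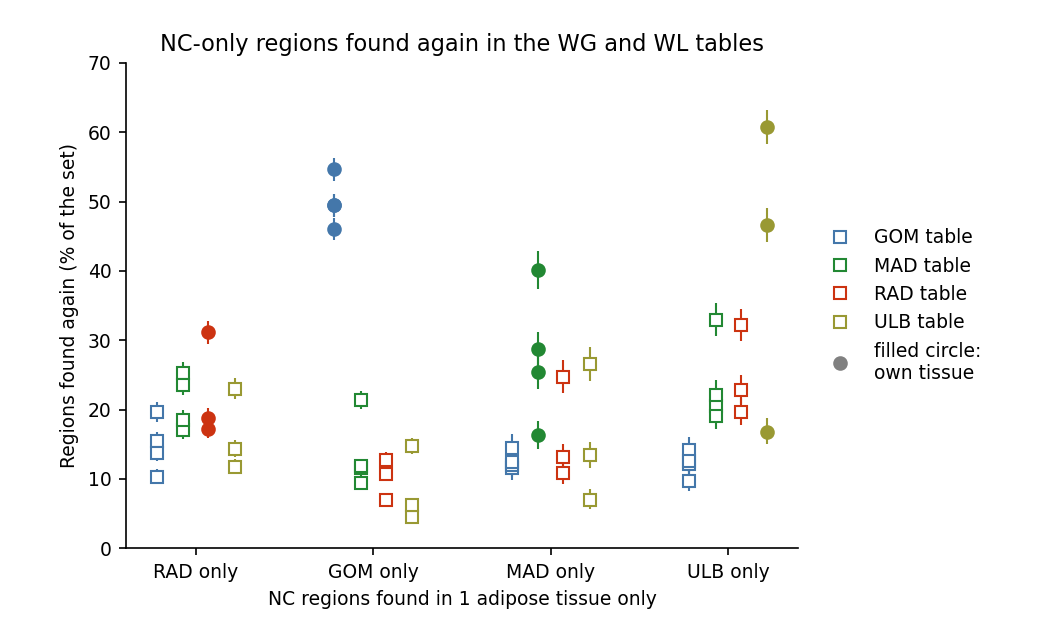
Percentage of the RAD-only, GOM-only, MAD-only and ULB-only regions of NC that overlapped a region of each of the 14 WG and WL tables, with exact 95% binomial intervals; filled circles are tables of the set's own AT, open squares those of other ATs. The RAD-only regions returned at 17.2, 31.1 and 18.8% in RAD tables and at 10.3 to 25.2% in the others, whereas GOM-only regions returned at 46% or more in GOM tables.

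Counted together, 1829 of the RAD-only regions (59.1%) were in none of the 3 RAD tables, 704 were in 1, 309 in 2 and 251 (8.12%) in all 3. Of those 251, 187 were also in at least 6 of the 11 tables of other ATs, and the median was 8 tables. Most regions found in all 3 RAD tables were thus also found in other depots. In none of the 14 WG and WL tables were 1296 regions (41.9%), in tables of other ATs but not of RAD 533, in both 1029, and 34 regions were in all 14 tables. At least 1 RAD table and no table of another AT held 235 regions (7.60%), and at least 2 RAD tables and no other held 20 (0.647%). Longer regions returned more often. Of the 135 RAD-only regions of 16 kb or more, 35.6 to 68.1% were in the RAD tables and 22.2 to 60.7% in the others, and of the 140 shorter than 1 kb, 12.9 to 15% and 5.0 to 17.9%.

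GC content moved with which RAD table held a region. From the class under 44% GC to that of 56% or more, the share of RAD-only regions found in the table of WG group 6 rose from 16 to 38.8%, and the share found in the WL table fell from 35.5% to 11.9%. For the table of WG group 5 the shares were 24.4 and 16.2%. The other NC RAD regions went from 68.5 to 56.9% in the table of WG group 6 and from 85.6 to 53.7% in that of WL, so the rise with GC content in the former was seen for the RAD-only regions and not for the rest of the table. The single library behind the WG group 6 table and the 2 behind the NC RAD table cannot be told apart from the conditions they stand for. Regions with the repeated words returned least, in 5.81, 14.8 and 3.23% in the RAD tables of WG group 5, WG group 6 and WL, against 17.8, 32 and 19.6% for the other RAD-only regions. They were 1.6 kb long at the median, against 2.9 kb, and their input signal was 203 per kb, against 173 per kb.

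Each region was next assigned the protein-coding gene with the nearest start within 100 kb, which gave 1728 genes to 2038 of the regions (65.9%), 1228 of them with an identifier in the count table. The rule uses no expression value, and RAD was compared with the mean of GOM, MAD and ULB within each group by edgeR's quasi-likelihood test, where a gene was called if its p, adjusted across the whole table, was under 0.05 and its fold exceeded 1.5. In NC, 38 of 780 tested genes near RAD-only regions were called higher in RAD (4.87%), against 2.26% of all genes tested, and 39 lower (5.0%), against 3.15%. In WG, 29 of 766 were higher (3.79%, against 1.81%) and 52 lower (6.79%, against 3.73%). In WL, 20 of 799 were higher (2.5%, against 1.58%) and 48 lower (6.01%, against 3.57%). The median log2 fold change of the genes in NC was -0.0016, against 0.015 for all genes. Genes near the other NC RAD regions were called higher in 2.42% and lower in 4.00% in NC. Genes near GOM-only, MAD-only and ULB-only regions were called higher in 2.46, 2.88 and 2.37% and lower in 7.27, 4.87 and 5.92% in NC. In WG they were higher in 1.98, 2.71 and 3.61% and lower in 7.59, 6.56 and 6.41%. In WL they were higher in 2.46, 1.99 and 3.29% and lower in 7.05, 5.74 and 5.42%. The ranges for lower genes in NC, WG and WL, and for higher genes in WL, hold the share near RAD-only regions.

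The count of higher genes fell when libraries with liver transcripts were left out, and so did the share of all genes. The 5 libraries are 3 of the 12 RAD and 2 of the 12 MAD libraries of NC. The part of the smaller sample in this fall was not tested. Without NC RAD replicate 7, 25 genes near RAD-only regions were higher in NC (3.20%, against 1.62% of all genes), with 24 of the 38 kept. Without the 5 NC libraries above 1000 TPM of ALB, 15 were higher (1.91%, against 1.02%), with 12 of the 38 kept: GYS2, SMOC1, TBX18, SH3GL2, SLIT1, PGR, EN1, ADAMTS16, STUM, GALNT5, ALX1 and CHRNA4. Lower genes, 39 with all libraries, numbered 46 without replicate 7 (5.89%, against 3.13% of all genes). Without the 5 libraries they numbered 36 (4.59%, against 2.47%). In all 3 groups, 8 genes were called higher (ADAMTS16, ALX1, CYP27A1, DHRS4, EN1, GALNT5, PGR and TBX18) and 20 lower, among them the transcription factors BARX1, FOXF1, GATA6 and NKX3-2 and the leptin receptor gene LEPR. Of the 8, CYP27A1 lost its NC call without NC RAD replicate 7, and CYP27A1 and DHRS4 lost theirs without the libraries above 1000 TPM of ALB. The share of all genes called in all 3 groups was not counted, so the counts of 8 and 20 are a description. The 3 groups are different libraries, and the regions come from NC alone. In a fit over all libraries, no RAD difference of a named gene changed between groups at the threshold (edgeR interaction, lowest adjusted p = 0.0560 for DIRAS3).

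ALX1 was transcribed in RAD and near or at 0 in the other depots. In NC its level in RAD ran from 1.6 to 11.4 TPM with a median of 5.70 in 12 libraries. In GOM it ran from 0 to 0.132 TPM (median 0.0761), in MAD from 0 to 0.244 TPM (median 0), and in the 5 ULB libraries it was 0, 0.194, 0, 0.0703 and 0.0374 TPM. Every RAD library lay above every library of the other ATs in NC, WG and WL. The lowest NC RAD value, 1.6 TPM in replicate 9, rested on 39 counts, and the highest value elsewhere in NC on 5. The log2 fold change was 6.90 ± 0.42 (SE) in NC (edgeR, adjusted p = 8.85e-15), 7.47 ± 0.17 in WG (adjusted p = 3.23e-86) and 6.82 ± 0.48 in WL (adjusted p = 1.55e-13). Because many values elsewhere are 0, the size of the fold depends on the prior count of the fit. ALX1 was tested only because its level in RAD passed the filter on expression, in NC, WG and WL alike. Its higher calls therefore follow from the filter, and the adjusted p-values add no separate evidence. The levels per library are a description. In NC RAD replicate 7, the library richest in ALB, ALX1 was at 2.19 TPM, and the log2 fold change was 6.97 without it. The region over its start had a net signal of 2442 and rank 4819, and lay 32000 bases from the nearest region of another NC table. A MAD-only region was also assigned to ALX1, as were other NC RAD regions. The RAD-only region and the gene's start fell in 1 topologically associating domain (TAD) in 12 of 12 NC RAD samples, a near-certain outcome for a region over the start.

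PGR was high in RAD and, to a lower degree, in MAD. Its NC level in RAD ran from 19.9 to 43.4 TPM (median 27.2), in MAD from 5.29 to 37.4 (median 21.6) and in GOM from 6.23 to 12.6 (median 9.33), and in the ULB libraries it was 1.91, 3.71, 2.16, 1.89 and 5.05 TPM. RAD libraries overlapped MAD libraries and lay above those of GOM and ULB. The log2 fold change against the mean of the other ATs was 1.79 ± 0.16 in NC (edgeR, adjusted p = 5.02e-10). Against MAD alone it was 0.44 with an adjusted p of 0.25, against GOM 1.56 (adjusted p = 5.80e-07) and against ULB 3.37 (adjusted p = 3.59e-10). In WG and WL it was 1.55 ± 0.09 and 1.36 ± 0.20 (adjusted p = 5.34e-36 and 1.07e-05).

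**Figure D3:**
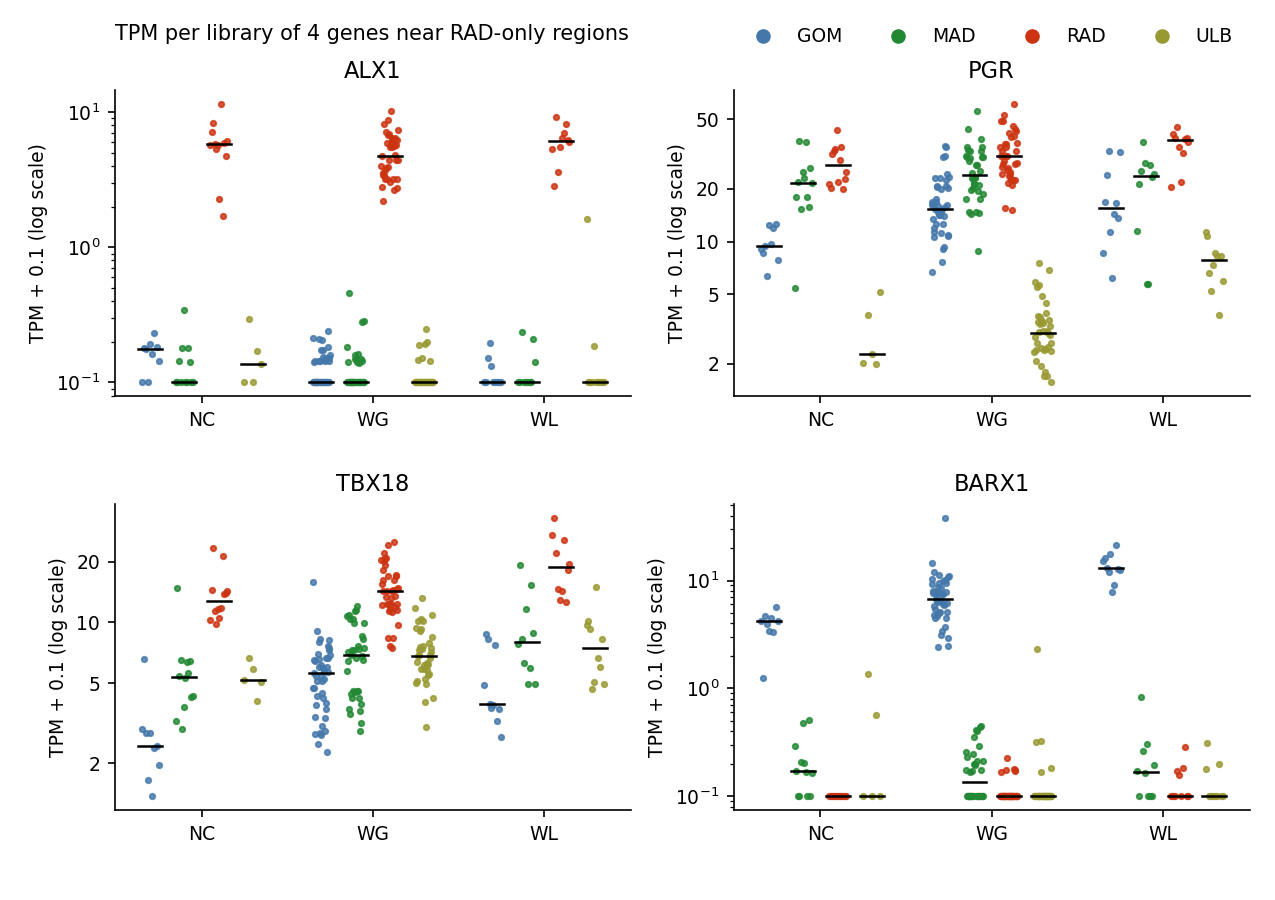
TPM per library (points, log scale after adding 0.1) of ALX1, PGR, TBX18 and BARX1 in GOM, MAD, RAD and ULB of the NC, WG and WL groups, with black lines at the medians. ALX1 in every RAD library exceeds every other library, and BARX1 is at 0 in all 12 NC RAD libraries and between 1.16 and 5.55 TPM in NC GOM.

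Transcription factors that pattern the body's segments and organs stood on both sides. Of 88 listed patterning factors, 18 were the nearest gene of 22 RAD-only regions, and 11 of these passed the filter on expression in NC. Of the 11, 3 were higher in RAD (ALX1, EN1 and TBX18) and 4 lower (BARX1, FOXF1, GATA6 and IRX2), beside 16 higher and 12 lower of the 59 listed factors tested. ALX1 passed the filter only through RAD, IRX2 only through ULB and BARX1 only through GOM, so these calls follow from the filter and the counts are a description. Without the libraries above 1000 TPM of ALB, 3 of the 11 were higher and 3 lower, beside 15 and 9 of the 59. In WG 4 were higher and 3 lower, and in WL 4 and 4, with IRX1 called higher in both. TBX18, a T-box factor of urogenital and epicardial mesenchyme, ran from 9.75 to 23.3 TPM in NC RAD (median 12.7), from 1.27 to 6.51 in GOM, and from 2.86 to 14.7 in MAD, and was 5.05, 6.58, 5.79, 3.95 and 4.98 TPM in ULB. Its log2 fold change was 1.73 ± 0.17 in NC (edgeR, adjusted p = 6.49e-09), 1.23 in WG and 1.5 in WL, and it was higher than in each of the other ATs in all 3 groups. The region near it, chr1:53839200-53843799, overlapped an exon 23661 bases from the start and was found in the RAD tables of WG group 6 and WL and in no table of another AT. EN1, an engrailed homeobox factor, ran from 1.57 to 4.18 TPM in NC RAD, from 0 to 0.174 in GOM and from 0.0406 to 1.07 in MAD, and was 12.4, 8.36, 14.5, 7.31 and 13.7 TPM in ULB. It was thus higher than in the other visceral ATs (log2 fold change 5.06 against GOM and 3.07 against MAD) and lower than in ULB (-1.84, edgeR, adjusted p = 0.00125), while 2.10 ± 0.28 against the mean of the 3 (adjusted p = 2.12e-06). The EN1 region shared a TAD with the gene's start in only 2 of 12 samples.

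Each of the lower factors was highest in another depot, GOM for BARX1, NKX3-2 and GATA6, MAD for FOXF1 and ULB for IRX2. BARX1, a homeobox factor of stomach mesenchyme, had 0 counts in all 12 NC RAD libraries and 1.16 to 5.55 TPM in GOM, which puts it at least 178-fold lower in RAD against a floor of 3 counts over the group. In ULB it was 0, 1.3, 0, 0.468 and 0 TPM. NKX3-2, a homeobox factor of the skeleton and gut mesenchyme, was at 0 in 10 of 12 NC RAD libraries and reached 0.257 TPM, against 1.2 to 9.77 TPM in GOM and 0.124 to 5.09 TPM in MAD, with a log2 fold change of -4.47 ± 0.68 (edgeR, adjusted p = 2.14e-05). GATA6, a zinc-finger factor of mesoderm and endoderm, ran from 1.25 to 5.77 TPM in RAD and from 14.6 to 55.8 in GOM, with a log2 fold change of -1.11 ± 0.23 (adjusted p = 0.00117), and its level in RAD did not pass the test against ULB (0.66, adjusted p = 0.284). FOXF1, a forkhead factor of gut mesenchyme, ran from 0.640 to 1.97 TPM in RAD and from 2.64 to 24.9 in MAD. Its log2 fold change was -1.08 ± 0.30 (adjusted p = 0.0189), and was -1.02 and not called without the libraries above 1000 TPM of ALB. IRX2, an Iroquois homeobox factor, was between 0 and 0.146 TPM in RAD, between 0 and 0.176 in GOM and at 5.77, 5.98, 6.89, 5.28 and 6.88 TPM in ULB, and its log2 fold change of -2.58 ± 0.67 (adjusted p = 0.0117) passed against ULB (-7.41) and not against GOM or MAD (-0.77 and 0.45). The IRX2 call followed from the filter on expression, which IRX2 passed only through ULB. The regions near these lower factors carried little signal, with net values from 42 (IRX2) to 340.2 (FOXF1).

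Other lower genes with RAD-only regions were LEPR, DIRAS3, KCNMB1 and CXCL14. LEPR, the leptin receptor gene, ran from 0.239 to 3.80 TPM in NC RAD (median 0.855), from 6.5 to 29.9 in GOM and from 1.85 to 18.7 in MAD, and was 8.95, 3.25, 5.98, 3.31 and 3.43 TPM in ULB. In NC it was lower than in each of the other ATs, with a log2 fold change of -2.63 ± 0.38 (edgeR, adjusted p = 7.0e-06), -2.46 in WG and -2.09 in WL, where the difference from ULB did not pass (-1.12, adjusted p = 0.149). Its region lay 5248 bases from the start, within the same TAD in 12 of 12 samples, and was in no WG or WL table. DIRAS3, a Ras-related GTPase, was at 0 to 0.519 TPM in RAD and 1.48 to 8.48 TPM in GOM, with a log2 fold change of -3.63 ± 0.80 (adjusted p = 0.00252). KCNMB1, a smooth muscle potassium channel subunit, was lower against MAD (-5.94, adjusted p = 9.05e-07), where it reached 162 TPM, and did not pass against GOM or ULB. CXCL14, a chemokine, was at -0.99 ± 0.30 (adjusted p = 0.0359) and was not called without NC RAD replicate 7, at the same log2 fold change.

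Among the genes with the largest higher log2 fold changes in NC were genes known for their expression in liver, which lost their call without NC RAD replicate 7. SERPINA5, a protease inhibitor of plasma, was at 71.0 TPM in NC RAD replicate 7, and its median in RAD was 1.65 TPM, against 1.10 in MAD, 0.134 in GOM and 1.49 in ULB. PLG, plasminogen, reached 228 TPM in that library and had medians of 7.0, 3.22, 1.99 and 4.81 TPM in RAD, MAD, GOM and ULB. SERPINA5, DPYS (pyrimidine breakdown), PLG, HPD (tyrosine breakdown), C8A (complement), ABCB11 (bile salt export), ITIH2 (a plasma hyaluronan-binding protein), ACSM4 (acyl-CoA synthesis) and CYP2E1 (oxidation of small molecules) had log2 fold changes from 2.26 (CYP2E1) to 2.81 (SERPINA5), and none of these 9 was called without replicate 7. Without the libraries above 1000 TPM of ALB, the log2 fold change of CYP2E1 changed sign (-0.16).

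The summed level of the 11 liver markers with values ran from 34.8 to 17025 TPM in NC RAD (median 437), from 20.5 to 572 in GOM (median 47.0), from 24.4 to 2349 in MAD (median 234) and from 41.5 to 1521 in ULB (median 251), highest in RAD replicate 7. All 11 tested liver markers were called higher in RAD in NC (2.26% of all genes), 4 of 7 in WG (1.81%) and 0 of 9 in WL (1.58%). Without NC RAD replicate 7, 0 of the 11 were called in NC, and likewise without the libraries above 1000 TPM of ALB. No liver marker with values was at 0 in every NC library of an AT. The part of liver transcripts in the result was not tested. The RNA-seq libraries numbered as the 2 NC RAD H3K27ac libraries, 3 and 10, held 151 and 406 TPM of ALB, and whether they stem from the same tissue pieces is not given in the sources used here.

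**Figure D4:**
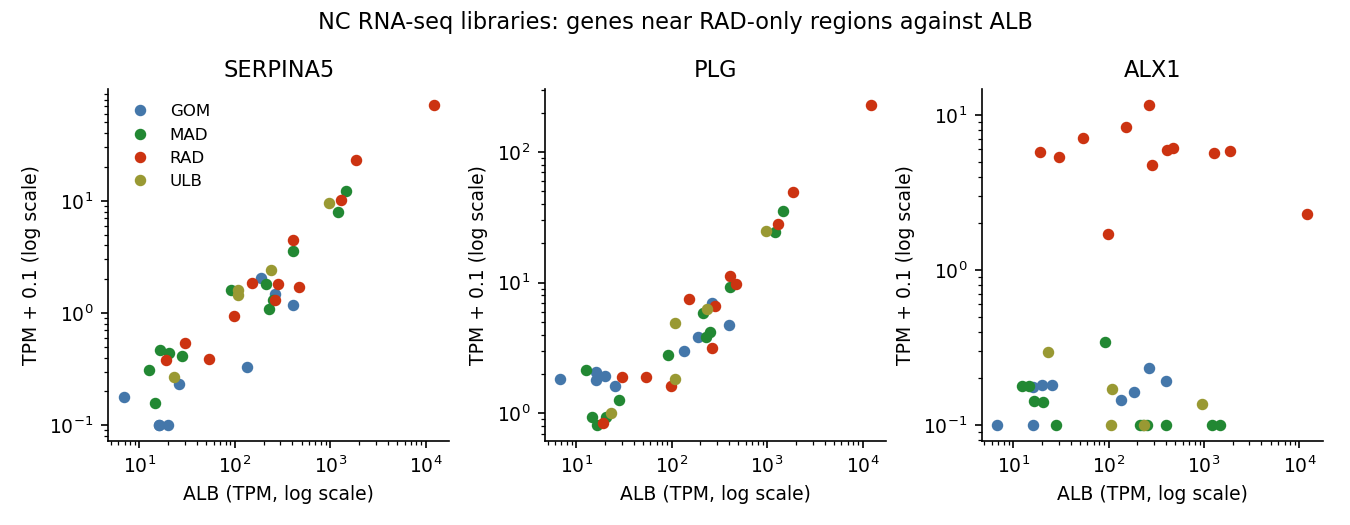
Level of SERPINA5, PLG and ALX1 (TPM + 0.1, log scale) against ALB (TPM, log scale) in the 38 NC libraries, coloured by AT. SERPINA5 and PLG are highest in the RAD library with 12157 TPM of ALB, and ALX1 is at 2.19 TPM there.

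The regions beside these genes were counted in the later tables. The 14 genes that lost their call without replicate 7 had 19 RAD-only regions, of which 14 (73.7%) were in no RAD table of WG and WL and 10 in no WG or WL table at all, and 14 lay over the gene or its start. The 24 kept genes had 28 regions, of which 16 (57.1%) were in no RAD table and 11 in no WG or WL table, and 17 lay over the gene or its start. Over all regions assigned to a gene of the count table, 660 of 1459 (45.2%) lay over the gene or its start. The strongest region of this group, chr7:115798400-115811799 over SERPINA5, had a net signal of 1001 and was in no WG or WL table. Regions over HPD (chr14:30844600-30847999), CYP2E1 (chr14:141690400-141696199) and ACSM4 (chr3:25325800-25328799) covered the starts of these genes and were likewise in none. Of the genes with a start within 10 kb of a RAD-only region, 16 of 78 (20.5%) were higher in RAD in NC, 4 of 78 (5.13%) without replicate 7 and 2 of 81 (2.47%) without the libraries above 1000 TPM of ALB, and 4 of 78 were lower. Over all genes tested, 2.26% were higher in NC, 1.62% without replicate 7 and 1.02% without those libraries, and 3.15% were lower in NC. NANOS1, a translational repressor of the germ line, had a log2 fold change of 2.38, peaked at 77.7 TPM in RAD replicate 4, and was at 0.70 and not called without the ALB-rich libraries.

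The nearest genes of RAD-only regions were 1728 of the 18725 protein-coding genes of the autosomes (9.23%), and the lists of adipocyte and marker genes are read against this share. Of 28 adipocyte lipid genes, LEP (leptin), LPL (lipoprotein lipase) and ABHD5 (a lipase co-activator) were the nearest gene of 4 regions, against 15 genes for the other NC RAD regions, and none of the 3 was called in any group, while 6 of 26 listed genes tested were higher in NC, and 4 without the libraries above 1000 TPM of ALB. Of 24 adipogenic factors only EBF2 was near a region and was called higher in WL only, beside 0 higher and 1 lower of 23 tested in NC. Of the 22 thermogenic genes 4 were near (ATP2A1, DIO2, EBF2 and ESRRG), with 0 called in NC, and of the 22 progenitor and matrix genes 3 (CXCL14, DPP4 and THY1), with CXCL14 lower in NC and DPP4 lower in WL. Of the markers of other cells, the nearest genes of RAD-only regions held 0 genes of the pancreas and gut or skin epithelium lists, 1 each of the mesothelium, skeletal muscle, lymphoid, macrophage, endothelium, ovary and gonad, and liver lists (FGA for liver), 2 of the kidney list and 3 of the adrenal list. In NC RAD the summed level was 0.832 to 14.2 TPM for the 10 kidney markers with values and 6.69 to 27 TPM for the 6 mesothelium markers, of which 3 of 5 tested were lower in RAD. None of the tested adrenal, skeletal muscle, lymphoid, macrophage, endothelium, pancreas and gut, skin, and ovary and gonad markers was called in NC, and 1 of 2 kidney markers was lower.

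Regions and their assigned genes mostly lay in the same TAD. Of 1857 pairs of a gene and a region that did not cover its start, 1075 (57.9%) fell in 1 TAD in all 12 NC RAD samples. In none did 63 (3.39%), against 65.0% and 2.58% of such pairs of the other NC RAD regions. The regions of PGR, TBX18, LEPR and DIRAS3 shared a TAD with the start in 12 of 12 samples, that of BARX1 in 11 and that of KCNMB1, which lies in an intron of KCNIP1, in 4. The ALX1 region covers the start and is not among these pairs.

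Hi-C placed the RAD-only regions between active and inactive chromatin. The A-B index, which is positive in the gene-rich A compartment, had a median over the 3069 bins of 20 kb that hold a RAD-only region of 0.35 in NC RAD, 0.22 in MAD, -0.05 in ULB and -0.13 in GOM, and 55.2% of the bins were above 0 in RAD, against 76.7% of the bins of other NC RAD regions and 47.6% of all bins. The index was not used to choose the regions. With limma, an adjusted p below 0.05 and a difference above 0.75, 292 of the 3069 bins had a higher index in RAD than in the mean of the other ATs (9.51%), against 3.06% of all bins, and 49 a lower one (1.6%), against 4.37%. In WG 37 bins were higher (1.21%, against 0.615%) and 19 lower (0.620%, against 1.71%), and in WL 71 were higher (2.31%, against 1.63%) and 18 lower (0.586%, against 0.667%). The bins of the other NC RAD regions were called higher in 2.97% in NC, 0.763% in WG and 2.26% in WL, and ULB-only bins in 2.43% in WL. In WL the share of RAD-only bins was thus close to these. After quantile normalization 24 RAD-only bins were higher and 31 lower in WL, where the share of all bins is not given here.

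Base composition moved with this result too. In NC the share of RAD-only bins called higher was 2.23% under 38% GC, against 1.07% of all bins and 3.17% of bins of other NC RAD regions. It was 2.95% at 38 to 42% GC (2.28 and 2.18%), 7.14% at 42 to 46% (3.93 and 2.88%) and 14.2% at 46% or more (6.07 and 3.81%). Within each class it was above that of all bins, and under 38% GC it was below that of bins of other NC RAD regions. Most calls lay in the class of 46% or more. The part of base composition in the result was not tested. The bin of the ALX1 region had an index of -5.20 at the median in NC RAD, in the range of the inactive B compartment, and did not differ from the other ATs in NC by the test (-0.30 ± 0.22, limma, adjusted p = 0.338) or in WG (0.19 ± 0.12, adjusted p = 0.185), and was higher in WL (0.98 ± 0.24, adjusted p = 0.00626). The PGR bin was not called in any group, with 0.61 in NC (adjusted p = 0.0238, below the size limit), -0.11 in WG and 0.25 in WL.

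**Figure D5:**
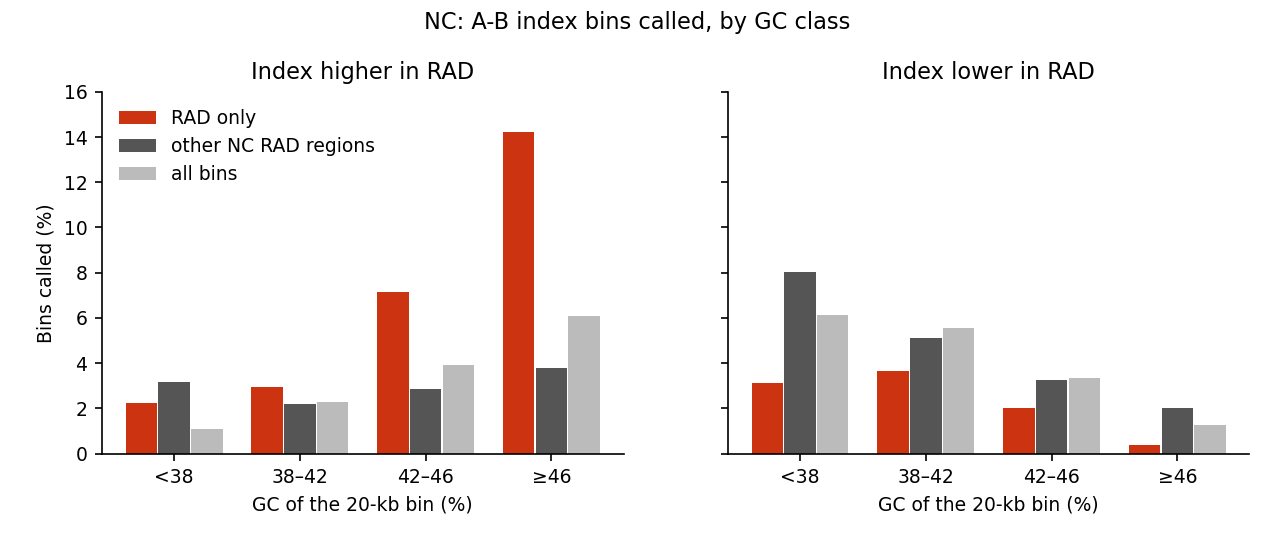
Percentage of 20-kb bins with a higher (left) or lower (right) A-B index in NC RAD than in the mean of GOM, MAD and ULB, by GC class of the bin, for bins of RAD-only regions, bins of other NC RAD regions and all bins. Higher calls reach 14.2% of RAD-only bins at 46% GC or more, against 6.07% of all bins, and lower calls fall as GC content rises for all bins from 6.13 to 1.29%.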

How the data were processed

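RNA-seq was quantified by the authors with kallisto 0.43.0, and the deposited tables hold estimated counts and TPM per gene (Sscrofa11.1). H3K27ac reads were aligned with BWA 0.7.15 and handled with SAMtools 1.3.1, peaks were called with SICER, and ROSE joined neighbouring peaks outside promoters, so the deposited signal is depth-normalised reads per base times length, pooled over libraries. The deposited A-B index is a score per 20-kb bin, and TADs were called by the authors per sample. Each whole-series table held 9 columns that matched no sample and were not used.

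Regions were compared by any shared base. Estimated counts were rounded and fitted with edgeR 4.0.16 (quasi-likelihood, TMM) in R 4.3.3, over protein-coding genes that exceeded 0.5 TPM in 80% or more of 1 AT's samples, with Benjamini-Hochberg adjustment over all genes. A-B indices were fitted with limma 3.58.1, each region taking the bin of its midpoint. Nearest starts came from RefSeq (18725 autosomal protein-coding genes, 13063 of them matched to the count table). Named genes are those of regions in all 3 RAD tables and no other, the 15 highest and 5 lowest called in NC, and called members of the lists, and 1 gene of this rule is not reported here. Lists cover patterning and adipogenic factors, adipocyte lipid, thermogenic, and progenitor and matrix genes, and markers of mesothelium, kidney, adrenal, skeletal muscle, lymphoid cells, macrophages, endothelium, pancreas and gut, skin, ovary and gonad, and liver. The regions and lists were chosen with earlier results of these data known, and the liver list, the fits without ALB-rich libraries, the test between groups and the repeated words were chosen after seeing the data. Alternatives were DESeq2 1.42.0, other normalizations, filters, library sets, gene assignments and overlaps. Scripts were tested on simulated data and used Python 3.11.15, numpy 2.4.6, pandas 2.3.3, scipy 1.17.1 and matplotlib 3.10.9.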

Additional observations from a re-analysis of the deposited data

Results flagged for a closer look

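Of 54 groups of 4 to 10 libraries examined for the named transcription factors and other genes, 10 held a value far from the others of its group, where chance flags about 1 in 20 groups. ALX1 was at 1.51 TPM in WL ULB replicate 1, with the next library at 0.0870 TPM. TBX18 was at 6.51 TPM in NC GOM replicate 2 (next 2.84) and at 14.9 TPM in WL ULB replicate 6 (next 10.0). GATA6 was at 5.60 TPM in NC ULB replicate 12 (next 2.0) and at 123 TPM in WL GOM replicate 8 (next 68.5). BARX1 was at 0.739 TPM in WL MAD replicate 3 (next 0.205), at 0.187 TPM in WL RAD replicate 8 (next 0.0823) and at 0.210 TPM in WL ULB replicate 2 (next 0.0991). IRX2 was at 0.173 TPM in WL MAD replicate 3 (next 0.0803), and CXCL14 at 33.5 TPM in WL RAD replicate 4 (next 18.4).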

How the results depend on the processing

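Restricting the set to regions above the median net signal per base left 608 regions, found in 21.7, 24.7 and 25.0% in the RAD tables of WG group 5, WG group 6 and WL, against 9.54 to 28.3% over the other tables (median 15.6%), so that WG group 6 no longer lay above them. When 50% of a region had to be covered, the shares were 12.9, 22.9 and 13.9%, with a median of 12.0% elsewhere. Counting a region within 1 kb gave 32.8% for WG group 6, and leaving out regions within joining distance of another NC region gave 16% for WL and a median of 15.1% elsewhere.

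Counts of higher and lower genes near the regions moved with the libraries and the assignment. Where no share of all genes is given, a count shows only how far it moved. In NC, with only libraries of at least 90% protein-coding TPM, the counts were 6 (0.734%, against 0.307% of all genes) and 11 (1.35%, against 0.621%). With only those under 90% they were 9 and 15. The higher count in NC was 25 without NC RAD replicate 7 and 15 without the libraries above 1000 TPM of ALB, where the log2 fold change of CYP2E1 had turned (-0.16). With starts within 10 kb the counts were 16 and 4 in NC, 6 and 9 in WG, and 3 and 6 in WL. With all genes within 100 kb they were 74 and 76, 53 and 94, and 39 and 94. With regions in all 3 RAD tables they were 6 and 1, 7 and 4, and 5 and 1. Without the TPM filter WG gave 66 and 97. In WL a term for the protein-coding share gave 13 and 30. In the same group, libraries of at least 90% gave 8 (1.00%, against 0.538% of all genes) and 14 (1.75%, against 0.952%). Without each NC ULB replicate in turn the NC counts were 33 to 35 and 34 to 37. DESeq2 gave 32 and 43 in NC.

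Counts of bins with a higher and lower A-B index were 676 and 138 in NC, 207 and 87 in WG, and 249 and 48 in WL at a difference above 0.5. With regions in all 3 RAD tables they were 35 and 0, 7 and 0, and 16 and 2. Quantile normalization gave 29 lower bins in NC, 8 in WG, and 24 higher and 31 lower in WL. Without each NC ULB replicate the NC counts were 272 to 351 and 43 to 59. The shares of all bins under these settings are not given here, so the counts show only how far they moved.

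Replicate numbers did not pair the samples in every comparison. Correlations of same-numbered deviations exceeded 0.1 in every pair only for MAD and ULB in WG and for MAD and RAD in WL. Their medians were nonetheless 0.560 to 0.636 in WG, against -0.0449 to 0.0262 over all pairs of samples. In NC the medians of same-numbered samples were 0.00607 to 0.230, and in WL 0.128 to 0.384. The main fits held no term for the replicate number, so they left out this pairing. With the replicate number as a block, 29 and 40 genes were called in NC, 34 and 49 in WG and 28 and 59 in WL, and 313 and 51 bins in NC, 36 and 19 in WG and 87 and 38 in WL. Of the other values of named genes, 510 kept direction and side of the threshold, 83 lost and 7 gained a call. The cause of these changes was not tested.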
